A study of Mus musculus and Homo sapiens with 9 samples.

Results

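S9.6 CUT&Tag peaks were compared between Mcm8 knockout (KO) and wild-type (WT) mouse embryonic fibroblasts (MEFs). The members were the 9605 peaks of the KO list and the 6481 peaks of the WT list, 16086 of the 102574 peaks in the 9 lists of the series, and all of them lay on assembled mm10 chromosomes. A KO peak with no base in common with a WT peak was called KO-only, a WT peak with no base in common with a KO peak was called WT-only, and the others were called shared. There were 8021 KO-only peaks (83.5% of the KO list, 95% interval 82.8 to 84.2%), 4893 WT-only peaks (75.5% of the WT list, 74.4 to 76.5%), and 1584 KO peaks that shared bases with 1588 WT peaks.

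The MEFs came from the trunks of E13.5 embryos of Mcm8 heterozygous crosses. WT cells were Mcm8+/+ and KO cells were Mcm8-/-, carrying a CRISPR-Cas9 deletion of an exon that shifts the reading frame, on a C57BL/6 and ICR background. Per the study's methods the MEFs were immortalised with an SV40 lentivirus and selected with puromycin, so WT and KO cells both carry that viral gene. The labels give 1 library per genotype and do not say how many embryos or cultures each stands for, and the sex of the embryos is not given. Beside them stood S9.6 libraries of MEFs with an adenoviral control shRNA (shControl) or an shRNA against the RNA helicase gene Ddx5 (shDdx5), and a library of wildtype MEFs without primary antibody. With 1 library per group no test was possible. Intervals below are 95% intervals that cover counting error only, and a difference beyond them compares these libraries, not the genotypes.

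An R-loop forms when RNA stays paired with a DNA strand and the opposite strand is left single. R-loops are common at active promoters, above all where the displaced strand is rich in G and at CpG islands, and they are removed by RNase H and by helicases such as DDX5 and DHX9. S9.6 is an antibody against RNA-DNA hybrids, and in CUT&Tag it brings a transposase that tags the DNA nearby. MCM8 is a helicase that works with MCM9, and with HROB as a loading factor, in homologous recombination and is needed for fertility. Proliferating fibroblasts transcribe genes of the cell cycle, the matrix, the ribosome and the cytoskeleton.

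The sequences below are those at the summits of strong promoter peaks of each class, shown so that the base composition described later can be seen. They show the mm10 plus strand from 50 bp before to 50 bp after the summit base, with capitals marking runs of 3 or more G or of 3 or more C. They were chosen after their values were seen, from the strongest promoter peaks of protein-coding genes without an overlapping no-antibody peak and without an exonic UTR base in the window.
The KO-only summit before Fxr2, a paralogue of the fragile X protein gene, lay at chr11:69632719-69632819.
Fxr2 (KO-only): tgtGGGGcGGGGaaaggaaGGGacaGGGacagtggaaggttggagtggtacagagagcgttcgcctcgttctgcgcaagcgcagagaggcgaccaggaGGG
The KO-only summit between Cbx5 (heterochromatin protein HP1 alpha) and Hnrnpa1 (an RNA-binding splicing factor) lay at chr15:103240040-103240140.
Cbx5 and Hnrnpa1 (KO-only): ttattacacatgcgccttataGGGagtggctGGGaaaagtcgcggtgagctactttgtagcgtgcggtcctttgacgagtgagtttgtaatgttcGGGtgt
The WT-only summit before Wee1, the kinase that holds back entry into mitosis, lay at chr7:110121797-110121897.
Wee1 (WT-only): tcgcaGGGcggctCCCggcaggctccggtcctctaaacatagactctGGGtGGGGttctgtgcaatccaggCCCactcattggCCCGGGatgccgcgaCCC
The WT-only summit before Sqle (squalene epoxidase of cholesterol synthesis) lay at chr15:59314884-59314984.
Sqle (WT-only): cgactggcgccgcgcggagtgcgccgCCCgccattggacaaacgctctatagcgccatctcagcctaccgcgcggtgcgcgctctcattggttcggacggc
The shared summits before Tbl2 and Dazap1 (an RNA-binding protein) lay at chr5:135149378-135149478 and chr10:80261245-80261345, with the KO summit in the middle.
Tbl2 (shared): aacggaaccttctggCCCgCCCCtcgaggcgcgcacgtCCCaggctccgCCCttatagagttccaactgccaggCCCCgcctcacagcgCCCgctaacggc
Dazap1 (shared): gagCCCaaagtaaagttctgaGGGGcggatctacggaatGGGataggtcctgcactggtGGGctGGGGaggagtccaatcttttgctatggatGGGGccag
The bases in capitals numbered 17 at Fxr2, 9 at Cbx5, 25 at Wee1, 3 at Sqle, 20 at Tbl2 and 21 at Dazap1. The other shared summits considered held 0 to 20 such bases, the lowest at Gm10801 and Srgap2 (7).

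The lists behind these classes were shallow. Depth was recovered from the peaks' own statistics, since the fold and p of a MACS2 peak fix its pileup in fragments and its local background. The lowest local background was 1.31 fragments in KO and 1.53 in WT, and the weakest peaks stood on 6 and 7 fragments. KO-only peaks had a median pileup of 8 fragments and WT-only peaks 9, against 13 on the KO side of shared peaks. The no-antibody library had a lowest background of 0.191 fragments, so a missing no-antibody peak carries little information. The shControl and shDdx5 lists stood apart on chromosome 7, which held 3.31 and 3.42% of their peaks against 6.40% in WT, 5.99% in KO and 6.56% without antibody. Depth, a chromosome 7 difference between the MEF preparations and genotype cannot be told apart where WT or KO is set beside the shRNA libraries. The lists do not show the loss of Mcm8: the KO peak there (chr2:132816436-132816690, fold 3.31) had its summit in an intron 365 bp after the TSS.

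Position in the gene differed far more between shared and unique peaks than between KO-only and WT-only peaks. Each summit was given 1 position, a promoter being within 1 kb of a transcription start site (TSS) of any annotated transcript. Promoters held 28.6% of KO-only summits (2297 peaks, 27.7 to 29.6%), 25.1% of WT-only summits (1227 peaks, 23.9 to 26.3%), and 74.1% (1174 peaks) and 73.6% of shared summits on the KO and WT sides. Introns held 39.1% of KO-only, 42.6% of WT-only and 13.0% of shared KO summits, and intergenic sequence held 26.7, 26.4 and 11.2%. Coding exons away from promoters held 1.82% of KO-only, 1.92% of WT-only and 0.379% of shared KO summits, and 3′ UTRs 1.48, 1.63 and 0.442%.

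**Figure D1:**
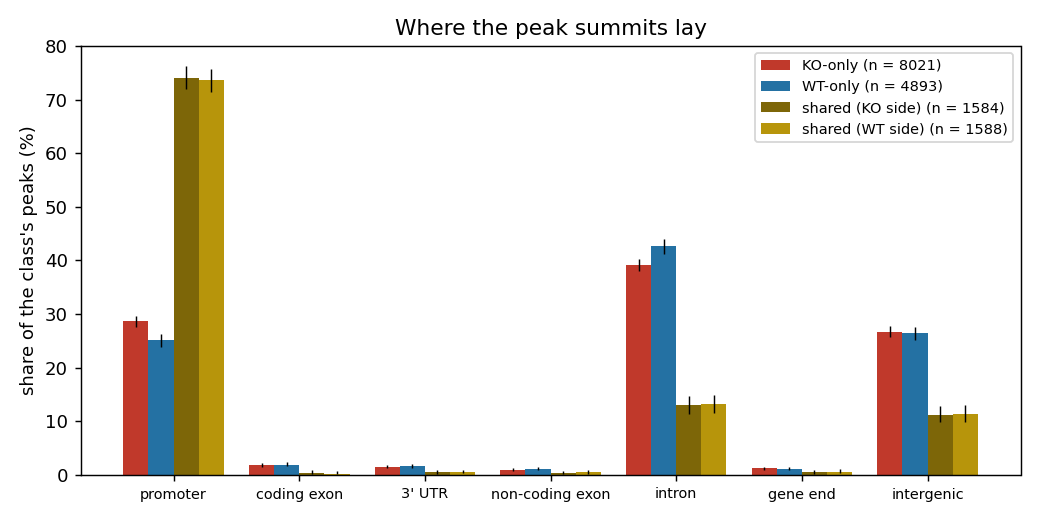
Share of peak summits (y axis, percent of the class) in each position (x axis) for KO-only, WT-only and both sides of the shared peaks, with 95% Wilson intervals for counting error as black lines. The bars for shared peaks stand near 74% at promoters, where KO-only and WT-only bars stand at 28.6 and 25.1%.

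KO-only peaks lay at promoters 3.56 percentage points more often than WT-only peaks (1.99 to 5.12) and in introns 3.52 points less often (-5.27 to -1.77 for KO-only minus WT-only). Their shares in coding exons, 3′ UTRs, non-coding exons, gene ends and intergenic sequence differed by less than counting error. The promoter difference depended on the settings. It was 7.66 points (4.07 to 11.2) among unique peaks with a q of 0.05 or lower, still classed against the whole other list. It was 8.13 with the 6481 strongest peaks of each list, a setting that keeps the whole WT list and drops only the weakest KO peaks. The promoter difference was 1.93 when at least 50% of both peaks had to be in common. With a promoter reaching 3 kb it was 1.17 (-0.57 to 2.90), within counting error.

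Strength was read from the −log10 p of the peak, which the overlap rule did not use. In the weakest band, a −log10 p of 3 to 4, promoters held 19.7% of KO-only summits (428 of 2176), 20.4% of WT-only summits (266 of 1305) and 58.1% of shared KO summits (54 of 93). KO-only and WT-only peaks in this band differed by -0.71 points (-3.50 to 2.0). The share rose with strength in every class. From 5 to 7 it was 36.2% in KO-only (34.3 to 38.1%) and 29.4% in WT-only peaks (27.2 to 31.8%), and from 7 to 10 it was 59.8% (262 of 438) and 52.3% (116 of 222). At 10 or more, 49 of 61 KO-only peaks (80.3%, 68.7 to 88.4%) and 10 of 16 WT-only peaks (62.5%, 38.6 to 81.5%) lay at promoters, beside 84.0% of shared KO peaks. A promoter share near that of shared peaks was thus found in the 61 strongest KO-only peaks but not in the KO-only class.

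**Figure D2:**
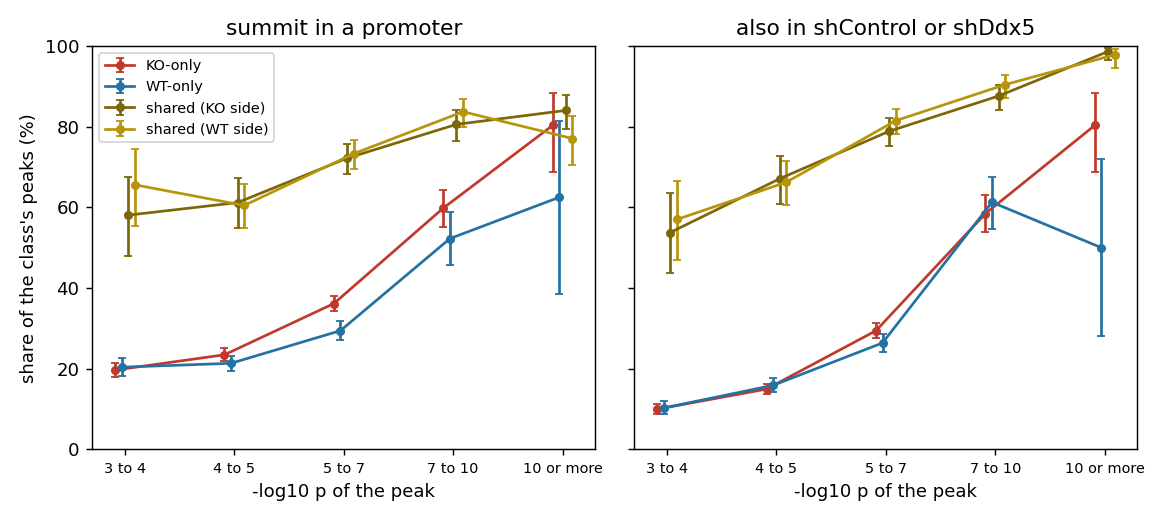
Share of peaks (y axis, percent) at a promoter (left) and with an overlapping shControl or shDdx5 peak (right) in bands of −log10 p (x axis), by class, with 95% Wilson intervals as bars. In the band of 3 to 4 the KO-only and WT-only points nearly coincide on both panels, while both shared sides lie above 50%.

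The promoters were mostly those of protein-coding genes. A TSS of such a gene lay within 1 kb of 89.1% of KO-only, 90.5% of WT-only and 95.8% of shared KO promoter summits. Promoters of long non-coding RNAs alone made up 5.75, 5.05 and 2.39%, and those of small non-coding RNAs 2.53, 1.71 and 1.11%. Places with TSSs of protein-coding genes on both strands within 1 kb held 17.5% of shared KO promoter summits, 9.58% of KO-only and 7.5% of WT-only ones. KO-only exceeded WT-only by 2.08 points (0.11 to 3.93) and shared exceeded KO-only by 7.88 points (5.46 to 10.4).

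Summits of all classes gathered at the TSS of protein-coding genes, and those of shared peaks lay closer to it and more often before it. The median distance was -2 bp in KO-only peaks (95% interval -9 to 3, n = 1961), -5 bp in WT-only (-14 to 3, n = 1058), -33.5 bp on the KO side of shared peaks (-43 to -23, n = 1064) and -23 bp on the WT side (-33 to -12, n = 1050), where negative means before the TSS. Within 250 bp of the TSS lay 66.0% of KO-only (63.9 to 68.1%), 61.0% of WT-only (58.0 to 63.9%), 79.9% of shared KO and 78.5% of shared WT summits. Downstream of the TSS lay 49.2% of KO-only and 48.3% of WT-only summits, and 38.4 and 40.7% of shared ones.

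**Figure D3:**
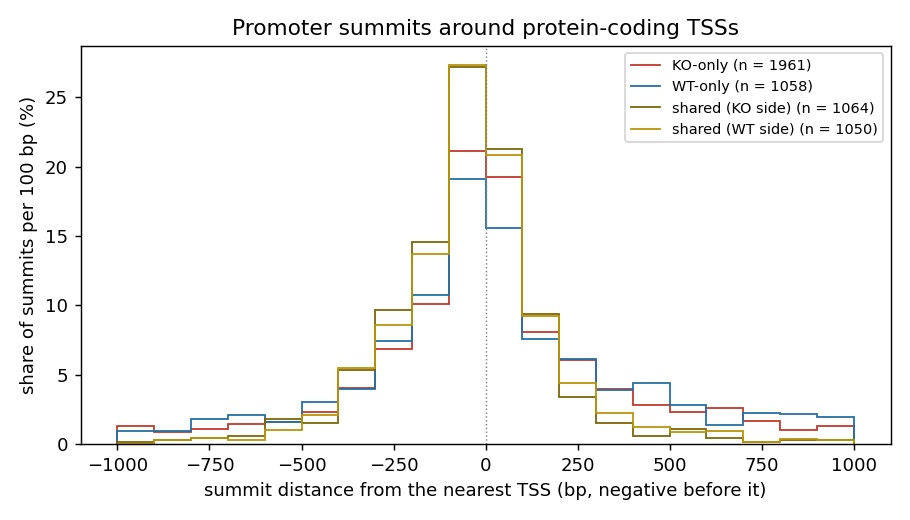
Share of promoter summits (y axis, percent per 100 bp) against distance from the nearest protein-coding TSS (x axis, bp, negative before it) for the 4 classes. All classes peak in the 100 bp before the TSS, at 21.1% for KO-only, 19.1% for WT-only and 27.2% for shared KO summits, and the unique classes have longer tails.

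Unique peaks were narrow and alike in width. The median width was 309 bp in KO-only (306 to 312) and 311 bp in WT-only peaks (308 to 315), a difference of -2 bp (-7 to 2.24), and 440.5 bp (431 to 456) and 411 bp (401 to 424) on the KO and WT sides of shared peaks. Over 500 bp were 9.01% of KO-only, 8.99% of WT-only, 38.3% of shared KO and 32.0% of shared WT peaks. A wide peak has more bases with which to meet another, so width is partly what the overlap rule selects. The strongest-peak setting keeps all 6481 WT peaks and the 6481 strongest KO peaks. There KO-only peaks were 14 bp wider than WT-only peaks at the median (9 to 19). The widest KO-only peaks were at the promoters of Dctn4 (a dynactin subunit, chr18:60525622-60526652, 1031 bp), Ncl (nucleolin, 996 bp) and Fzd7 (a Wnt receptor, 987 bp). The summit at Ncl lay in a non-coding exon of C130036L24Rik. The widest WT-only peaks were in an intron of Megf11 (1280 bp), at the promoter of Cthrc1 (a secreted matrix protein, 1081 bp) and in an intron of Dnmt1 (the maintenance DNA methyltransferase, 1074 bp). Their folds were 4.22, 5.24 and 3.82 for the KO-only peaks and 3.34, 3.63 and 3.68 for the WT-only peaks. The fold sets the fragments at the summit over the local background after the same small constant is added to both. It is thus lower than the plain ratio.

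Fold was also alike in the unique classes. The median was 3.47 in KO-only and 3.46 in WT-only peaks, and 4.17 and 3.96 on the KO and WT sides of shared peaks. Of KO-only peaks 28.2%, and of WT-only peaks 21.9%, had a q at or under 0.05, a difference of 6.28 points (4.75 to 7.80), beside 76.3 and 65.8% of shared peaks. The q depends on how many peaks a list holds and how strong they are, so it is not a common scale for both lists.

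Base composition followed position. In windows reaching 100 bp to either side of the summit, the median GC content was 50.7% in KO-only and 50.7% in WT-only peaks, and 61.7% on both sides of shared peaks. Among promoter summits it was 60.7% in KO-only, 59.7% in WT-only and 64.2% in shared KO peaks, and away from promoters 48.8, 48.8 and 50.7%. Windows of the same length centred on all 21938 protein-coding genes' TSSs had a median of 58.7%. The ratio of observed to expected CpG among promoter summits was 0.650 in KO-only (0.628 to 0.669), 0.587 in WT-only (0.547 to 0.615) and 0.770 in shared KO peaks (0.757 to 0.784). Repeat-masked sequence covered a median 8.46% of the KO-only window, 9.95% of the WT-only window and 0% of the shared one.

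The G-quadruplex pattern, 4 runs of 3 or more G with loops of 1 to 7 bases, or the same in C, stood in 6.56% of KO-only windows (6.04 to 7.12%), 6.52% of WT-only windows (5.86 to 7.25%), 16.0% of shared KO and 17.1% of shared WT windows. It stood in 16.1% of the windows at all protein-coding TSSs (3539 of 21938). Among promoter summits it was found in 14.1% of KO-only (12.8 to 15.6%), 15.1% of WT-only (13.2 to 17.2%) and 20.1% of shared KO peaks (17.9 to 22.5%), and away from promoters in 3.51, 3.66 and 4.15%. The WT-only promoter interval included the share at all TSSs, the KO-only interval lay below it and the shared interval above it, with windows centred on summits in place of TSSs. GC skew, the excess of G over C on the coding strand, had a median of 0.066 in KO-only, 0.068 in WT-only and 0.076 in shared KO windows whose summit lay 0 to 500 bp after the TSS. Before the TSS the medians were 0.020, 0 and 0.025. The median was 0.026 in windows centred on all TSSs, which reach to both sides of the TSS and so are not like for like.

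The shControl and shDdx5 lists did not define the classes, so they show how often a place had a peak in other MEF libraries. Of KO-only peaks 10.1% had a shControl peak and 16.6% a shDdx5 peak. The same shares were 10.2 and 14.9% for WT-only peaks and 56.4 and 76.6% for shared KO peaks. No overlapping peak in either list was found for 79.2% of KO-only, 80.3% of WT-only and 18.4% of shared KO peaks. A no-antibody peak was met by 0.611% of KO-only, 0.429% of WT-only and 3.85% of shared KO peaks. The KO-only and WT-only shares for either shRNA list differed by 1.05 points (-0.38 to 2.47), within counting error. With all 6481 WT peaks and only the 6481 strongest KO peaks they differed by 6.74 points (5.07 to 8.40).

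For shDdx5, promoter and other peaks went opposite ways. Among promoter peaks 42.6% of KO-only and 36.4% of WT-only had a shDdx5 peak, 6.15 points apart (2.76 to 9.48), while shControl was met by 22.4 and 20.6%, 1.80 points apart (-1.08 to 4.59). Among peaks away from promoters KO-only peaks met shDdx5 peaks 1.45 points less often than WT-only peaks (-2.54 to -0.41 for the difference) and shControl peaks 1.48 points less often (-2.50 to -0.51). In the weakest band of −log10 p, 9.97% of KO-only and 10.3% of WT-only peaks had a peak in either list. At 10 or more the shares were 80.3% (49 of 61) and 50% (8 of 16). Among unique peaks of all positions that reached a q of 0.05, 35.4% of KO-only and 32.3% of WT-only peaks met a shDdx5 peak. That difference was 3.01 points (-0.44 to 6.39), within counting error. The shDdx5 list itself had 60.5% of its peaks at such a q, and the shControl list 28.1%. Promoter peaks had a median fold of 3.62 in KO-only and 3.50 in WT-only. The part of strength in the promoter difference was not tested.

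The strongest 10 KO-only peaks, by −log10 p, were all at promoters. Of these, 9 also had a shDdx5 peak, 6 a shControl peak and 0 a no-antibody peak, and their folds were 5.65 to 7.37. They lay at Bicdl1 (a dynein adaptor, chr5:115652931-115653235, fold 6.94), between Armc10 and Fbxl13 (7.35), at Fxr2 (6.74), Fzr1 (Cdh1, the coactivator that keeps the anaphase-promoting complex active in G1, 5.65), Plpp1 (a lipid phosphatase, 7.37), between Casc1 and Etfrf1 (6.53), at Paip2b (a repressor of poly(A)-binding protein, 6.28), between Prkcsh and Ccdc151 (6.26), at Dld and between Cbx5 and Hnrnpa1 (6.03). The Dld peak (dihydrolipoamide dehydrogenase, a subunit of the mitochondrial 2-oxo acid dehydrogenases, chr12:31350985-31351577, fold 7.37) was the 1 of the 10 that no other MEF list held.

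The strongest 10 WT-only peaks were weaker and more scattered. Promoters held 5 of them, 4 had a shDdx5 peak, 3 a shControl peak, and 6 had neither. The promoter peaks were at Wee1 (chr7:110121647-110122012, fold 5.92), Park7 (a protein that guards against oxidative stress, fold 5.67), Eef1e1 (a scaffold of the aminoacyl-tRNA synthetase complex, 6.15), Arl6ip1 (a shaper of the endoplasmic reticulum, 6.30) and Tbcd (a tubulin chaperone, 5.63). The others lay in an intergenic region 6793 bp from Iscu (4.97), in introns of Mid1 (6.73), Arid1b (5.52) and Il1rl1 (5.88) and in the 3′ UTR of Slc30a4 (5.82).

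The strongest 10 shared peaks were of another kind. Only 2 lay at a promoter by the annotation, 10 had a shControl and a shDdx5 peak, and 6 had a no-antibody peak. The first lay in intergenic sequence 4252 bp from Gm11668 (chr11:109011646-109012168, fold 29.2), and others lay in the non-coding Gm26917 (chr17:39843198-39846699, fold 3.54) and the 3′ UTR of Lars2 (the mitochondrial leucyl-tRNA synthetase, fold 32.0). Whether signal at these places is S9.6-dependent was not tested.

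At shared places the KO fold was slightly the higher. The median log2 ratio of fold, KO over WT, was 0.08 over 1584 pairs (0.05 to 0.10), and KO was higher in 939 of them (59.3%, 56.8 to 61.7%). The fold is set against each library's local background, and MACS2 uses no common scale. With the pileup divided by each list's lowest background instead, a choice made after the data were seen, the median log2 ratio was 0.22 and KO was higher in 1185 of 1580 pairs (75%, 72.8 to 77.1%). A pair with equal pileups in fragments takes this value of 0.22, since the divisor was 1.31 in KO and 1.53 in WT. Such pairs count as KO higher, so the 0.22 is the ratio of the divisors and not a difference in fragments. KO fold exceeded WT fold by over 1.5 times in 81 pairs, and WT fold exceeded KO fold by as much in 25. Summits of a pair lay a median of 120.5 bp apart, 44.2% of them within 100 bp, and 69.2% of pairs had at least 50% of both peaks in common.

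The pairs with the highest KO over WT ratio were at Pip5k1c (a lipid kinase, fold 5.76 in KO and 2.68 in WT), Vcp (the p97 segregase, 5.72 and 2.68), Cnnm2 (a magnesium transporter, 6.09 and 3.03), Ogg1 (the glycosylase that removes oxidised guanine, 5.88 and 3.09) and 2854 bp before Dot1l (a histone methyltransferase, 5.33 and 2.83). The lowest were at Mipep (a mitochondrial peptidase, 2.87 in KO and 5.26 in WT), Rabif (3.48 and 6.27), Zfp39 (2.96 and 5.27), 9130401M01Rik (2.95 and 5.08) and Rab5a (a GTPase of early endosomes, 3.65 and 6.20). All of these but the Dot1l pair were at promoters. The pileups behind them were small, for example 22 fragments in KO and 8 in WT at Vcp, and 7 and 16 at Mipep.

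**Figure D4:**
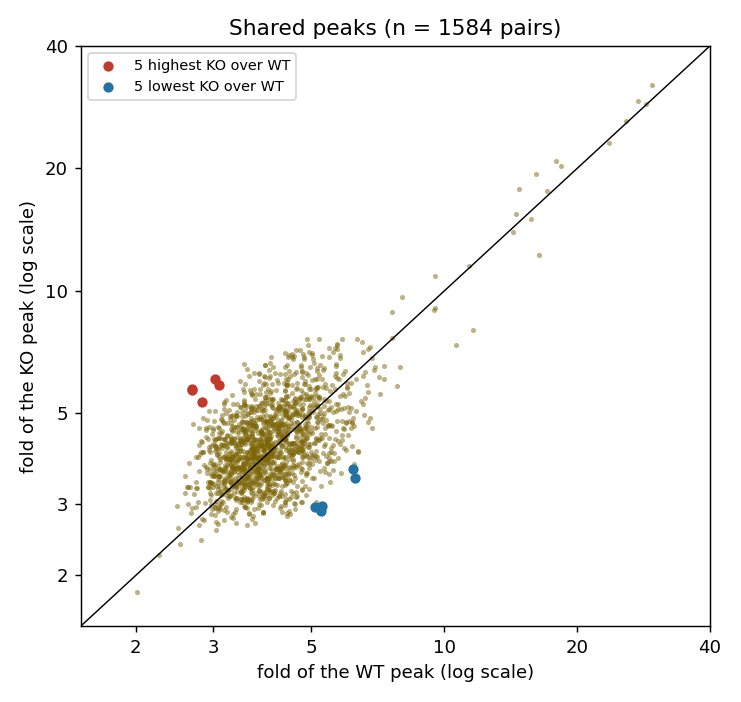
Fold of the KO peak (y axis, log scale) against fold of the overlapping WT peak (x axis, log scale) for the 1584 shared pairs, with equality as a line and the 5 highest and 5 lowest ratios coloured. The points scatter around the line with a median log2 ratio of 0.08, and the pairs with folds above 10 lie close to it.

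At the level of genes, 2063 protein-coding genes had a promoter summit in KO only, 9.40% of the 21938 genes, 1020 in WT only (4.65%) and 1456 in both (6.64%). These percentages are the background for the gene lists below. Among the 1456 genes in both, the KO fold was the higher in 871 (59.8%) and the WT fold in 585. The KO and WT peaks of a gene in both need not overlap. Some of these folds, here and in the lists below, are thus of different places. KO only outnumbered WT only by 2.02 (1.88 to 2.18), beside a ratio of 1.64 (1.58 to 1.70) for the unique peaks of all positions. The gene ratio counts promoters alone, where there were 2297 KO-only and 1227 WT-only peaks. The gene ratio was 2.61 with only peaks at a q of 0.05 or lower counted, against the whole other list. It was 1.43 with all 6481 WT peaks and only the 6481 strongest KO peaks. Their peak had a q at or under 0.05 in 1011 of the KO-only genes (49.0%), 387 of the WT-only genes (37.9%) and, in KO, 1138 of the genes in both (78.2%). A promoter summit in shDdx5 was found for 55.9% of KO-only, 52.4% of WT-only and 85.1% of genes in both, and one in shControl for 32.7, 29.4 and 67.9%. The KO-only and WT-only shares differed by 3.59 points for shDdx5 (-0.15 to 7.32) and 3.31 for shControl (-0.18 to 6.71), both within counting error. All 4 S9.6 lists held 915 genes, while 734 genes were in KO and none of the other 3, and 406 in WT and none of the other 3.

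Of 10155 long non-coding RNA genes, 314 had a promoter summit in KO only, 143 in WT only and 196 in both. The counts were 33, 15 and 7 of 1507 snoRNA genes, which often sit within host genes, and 42, 16 and 19 of 2202 miRNA genes. Pseudogenes had few, 53, 28 and 10 of 13523.

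Gene lists were compared with the background by count alone. A peak within 1 kb of several genes counts for each, so Armc10 and Fbxl13, Rps2 and Snhg9, Mrpl47 and Ndufb5, or Hoxc5 and Hoxc10 rest on 1 peak each. Among lists of 10 or more genes, the KO-only share exceeded 9.40% by over 1.5 times in 8. These were small nucleolar RNA host genes, cyclins with CDKs and E2Fs, F-box genes and immediate-early genes. The others were replication genes, hnRNP and SR splicing factors, cytosolic ribosomal proteins and nuclear respiratory chain genes. The WT-only share also exceeded its 4.65% background by over 1.5 times in some lists. Of those 8, cyclins with CDKs and E2Fs (10.3%) and hnRNP and SR splicing factors (13.2%) did so. So did ubiquitin-specific proteases (16%), heat-shock and DNAJ chaperones (15.1%), DEAD and DEAH box helicases (13.2%) and proteasome subunits (12.5%). The rest were matrix genes (10.8%), growth-promoting genes (10.3%) and homologous recombination genes (10%). Of the 15 small nucleolar RNA host genes 14 are long non-coding, and over all long non-coding RNA genes the shares were 3.09% in KO only, 1.41% in WT only and 1.93% in both.

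**Figure D5:**
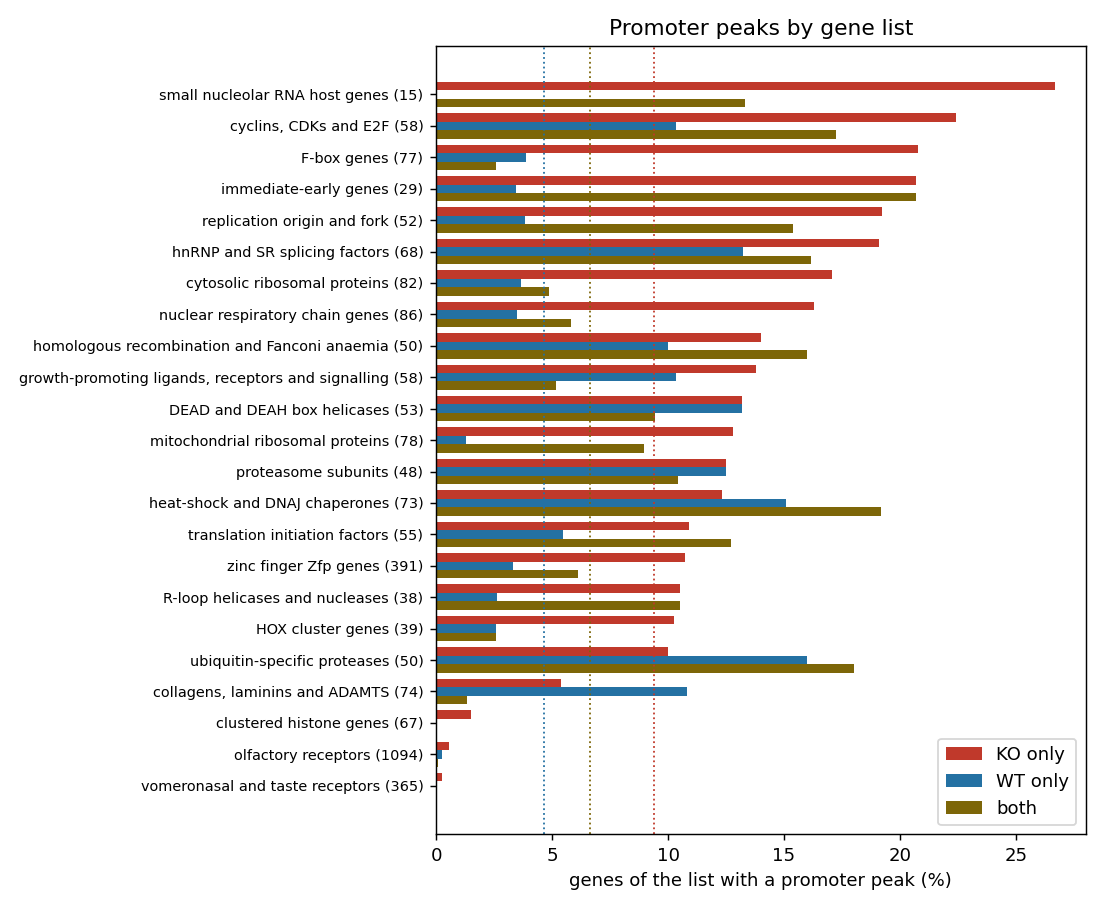
Share of the genes of each list (y axis, with the number of genes) that had a promoter summit in KO only, WT only or both (x axis, percent), with the background of all protein-coding genes as dotted lines at 9.40, 4.65 and 6.64%. Bars of small lists rest on few genes, and olfactory, vomeronasal and taste receptors and clustered histone genes stand near 0.

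Genes of the replication origin and fork, 52 in all, had a promoter summit in KO only for 10, in WT only for 2 and in both for 8. The KO-only genes included Gins4 (a GINS subunit of the replicative helicase, chr8:23237289-23237914, fold 5.11), Orc4 (an origin recognition subunit, 5.20), Rfc4 (a subunit of the clamp loader, 4.81) and Rpa3 (of the single-strand binding complex, 4.34), of which Rpa3 had no peak in the shRNA lists. The WT-only genes were Mcm7 (a replicative helicase subunit, 3.71) and Rpa2 (3.07). Genes in both included Gins2 (5.75 in KO and 5.13 in WT), Mcm4 (6.45 and 5.15), Orc6 (6.23 and 5.89) and Pcna, the sliding clamp (4.85 and 3.84), and the KO fold was the higher in 8 of the 8. A q of 0.05 was reached by 4 of the 10 KO-only and 1 of the 2 WT-only genes, beside 49.0 and 37.9% over all protein-coding genes.

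The 50 genes of homologous recombination and the Fanconi anaemia pathway, in which MCM8 acts, exceeded the background in each state, as some lists outside that pathway did. The shares in KO only, WT only and both were 14, 10 and 16%. They were 12.5, 12.5 and 10.4% for proteasome subunits and 19.1, 13.2 and 16.2% for hnRNP and SR splicing factors. A promoter summit stood in KO only for 7, in WT only for 5 and in both for 8. KO-only genes included Atrip (the partner of ATR, chr9:109073549-109074329, fold 4.44), Rad54l (a DNA translocase, 3.74), Fanci (3.71) and BC030867, the annotation's symbol for the gene of HROB (chr11:102248736-102249012, 3.23). WT-only genes included Fance (3.86), Fanca (3.61) and Mus81 (a structure-specific nuclease, 3.16). Among genes in both, Fancc had folds of 7.08 in KO and 5.60 in WT, Slx4 (a nuclease scaffold) 6.24 and 3.81, and Rmi1 (of the BLM dissolvasome, on a promoter it shares with Hnrnpk) 4.06 and 6.0. The KO fold was the higher in 5 of the 8. Mcm9 had no peak in KO or WT and had promoter peaks in shControl and shDdx5.

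Of 38 genes for R-loop helicases, nucleases and related factors, 4 had a promoter summit in KO only, 1 in WT only and 4 in both. The KO-only genes were Zranb3 (a fork-remodelling translocase, chr1:128102782-128103411, fold 6.48), Top2b (4.36), Ddx5 (chr11:106788712-106789216, 3.94) and Srsf1 (3.25). The WT-only gene was Smarcal1, another fork remodeller (3.39). The Zranb3 and Ddx5 peaks also met peaks in shControl and shDdx5, those of Top2b and Smarcal1 in shDdx5 alone, and that of Srsf1 in neither. Among genes in both, the KO fold was the higher in 1 of the 4, Tdrd3 (a partner of TOP3B, 4.95 in KO and 4.64 in WT), while Sin3a (a corepressor scaffold) had folds of 3.24 and 3.81. Dhx9 had a KO peak in an intron (4.55) and none at its promoter, where shControl had one (4.05). The wider family of DEAD and DEAH box helicases gave 7 KO-only, 7 WT-only and 5 in both of 53.

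Cell cycle genes (cyclins, CDKs, their inhibitors and E2Fs) gave 13 KO-only, 6 WT-only and 10 in both of 58. KO-only genes included Ccne1 (cyclin E1, chr7:38107630-38107958, fold 4.55), E2f3 (4.17), Cdk4 (the G1 kinase, 3.75) and Rbl1 (p107, 4.23). WT-only genes included Tfdp2 (the E2F partner DP2, 4.53), Cdk1 (the mitotic kinase, 3.77), Ccne2 (3.28) and E2f1 (2.77). Of the 10 in both, the KO fold was the higher in 6, as at Ccna2 (cyclin A2, 5.30 in KO and 3.87 in WT). The WT fold was the higher in 4, as at Cdkn2c (the CDK inhibitor p18, 3.28 and 5.15). The Cdkn2c peaks did not overlap (chr4:109665337-109665712 in KO, chr4:109666879-109667171 in WT), so its folds are of different places. Family members of like function thus fell on opposite sides, as Ccne1 and Ccne2 did. Immediate-early genes gave 6, 1 and 6 of 29, with Klf2 (4.13) and Fos (3.58) in KO only, Nr4a2 (3.99) in WT only, and Jun (4.46 in KO and 3.91 in WT), Egr1 (3.35 and 3.54) and Myc (3.60 and 3.69) in both.

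Genes of the cytosolic ribosome gave 14 KO-only, 3 WT-only and 4 in both of 82. KO-only genes included Rpl30 (chr15:34443247-34443704, fold 5.09), Rpl11 (3.91), Rps25 (3.89) and Rps19 (3.61), and the WT-only ones were Rps12 (3.64), Rpl41 (3.44) and Rpl22 (3.29). Mitochondrial ribosomal protein genes gave 10, 1 and 7 of 78, with Mrps28 (4.56) and Mrps7 (4.13) in KO only and Mrpl12 (2.62) alone in WT only. Nuclear genes of the respiratory chain gave 14, 3 and 5 of 86, with Ndufv1 (the flavoprotein of complex I, 4.63) and Uqcrh (of complex III, 4.10) in KO only and Cox6b1 (of complex IV, 3.96) in WT only. Among genes in both, the KO fold was the higher in 0 of 4, 5 of 7 and 5 of 5 in these lists. Across these 3 lists 22 of the 38 KO-only genes and 0 of the 7 WT-only genes reached a q of 0.05 in their own list. Over all protein-coding genes the shares were 49.0% of KO-only and 37.9% of WT-only genes, and the q is not a common scale for both lists. The small nucleolar RNA host genes gave 4, 0 and 2 of 15, with Snhg17 (4.89) in KO only and Gas5 (4.57 in KO and 3.48 in WT) and Snhg18 (3.19 and 4.55) in both.

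In other housekeeping lists KO-only genes outnumbered WT-only genes by no more than the 2.02 of all protein-coding genes, or were the fewer. Proteasome genes gave 6 KO-only, 6 WT-only and 5 in both of 48, with Psma4 (4.56) in KO only and Psmb1 (4.84) in WT only. Chaperone genes of the heat-shock and DNAJ families gave 9, 11 and 14 of 73, and of the 14 in both the KO fold was the higher in 6, as at Hspa8 (the constitutive HSC70, 6.20 in KO and 3.90 in WT), and the WT fold in 8, as at Hsp90aa1 (an HSP90, 3.47 and 4.60). Ubiquitin-specific proteases gave 5, 8 and 9 of 50. Translation initiation factors gave 6, 3 and 7 of 55, and of the 7 in both the KO fold was the higher in 4, as at Eif5a (6.37 in KO and 4.76 in WT), and the WT fold in 3, as at Eif2ak4 (the kinase GCN2, 6.08 and 7.31). The hnRNP and SR splicing factors gave 13, 9 and 11 of 68. Hnrnpa1 (6.03) was in KO only, Hnrnpab (4.55) and Hnrnpa2b1 (4.95) in WT only, and Hnrnpul2 (5.78 in KO and 4.64 in WT) and Hnrnpk (4.06 and 6.0) in both, where the KO fold was the higher in 8 of 11.

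Matrix genes (collagens, laminins and ADAMTS proteases) were the list with most WT-only genes for its KO-only ones, at 4, 8 and 1 of 74. The WT-only genes included Lama3 (4.0), Col13a1 (3.59) and Col16a1 (3.12), and only 1 gene, Lamc1, was in both (5.61 in KO and 4.51 in WT). The WT-only summits named here lay 281 to 860 bp after the TSS. F-box genes, whose products select substrates for ubiquitination, gave 16, 3 and 2 of 77, with Fbxo30 (4.94) and Fbxo45 (4.65) in KO only and Fbxl20 (5.17) in WT only. Genes of KRAB and other Zfp zinc finger proteins gave 42, 13 and 24 of 391, close to the background. Growth-promoting ligands, receptors and signalling genes gave 8, 6 and 3 of 58, with Notch1 (4.32) in KO only and Bmpr2 (4.92) in WT only. HOX cluster genes gave 4, 1 and 1 of 39, and the 4 KO-only genes rest on 2 peaks.

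Receptor genes of the sensory organs and clustered histone genes had few peaks. Of 1094 olfactory receptors 6 had a promoter summit in KO only, 3 in WT only and 1 in both, and of 365 vomeronasal and taste receptors 1, 0 and 0. Clustered histone genes gave 1, 0 and 0 of 67. Among the cell type markers, Fn1 (fibronectin, 4.69 in KO and 4.69 in WT) and Vim (vimentin, 4.11 and 3.14) of the 15 fibroblast markers were in both, and Fbn1 (3.48) in KO only. The other 12 fibroblast markers and all 8 epithelial, 8 immune, 6 endothelial and 6 neuronal markers had no promoter summit in either list, and of 6 germ cell markers Pou5f1 (4.07) and Dazl (3.47) had one in KO only. A peak list holds too few promoters to identify a cell type.

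Unique peaks were spread over many genes rather than gathered in few. Inside a gene or up to 1 kb before it, 4374 genes held at least 1 KO-only summit and 2815 at least 1 WT-only summit, while 283 and 113 held 3 or more. The genes with most were very long. Gm20388, a readthrough locus of 4435 kb on chromosome 8, held 60 KO-only and 33 WT-only summits. Fgfr2 as annotated here (2961 kb) held 12 and 5, Kalrn (604.5 kb) 10 and 4, Rbms3 (an RNA-binding protein, 1057 kb) 10 and 5, and Kcnma1 (a potassium channel, 725.1 kb) 8 and 0. Camta1 (944.6 kb) held 7 and 7, Gse1 (352.9 kb) 5 and 7, and Fndc3b and Iqsec1 3 and 6 each. Intronic summits in protein-coding genes lay at a median of 50.6% of the gene length in KO-only and 52.8% in WT-only peaks, with 23.4 and 23.6% of them in the first 25% of the gene, so neither class leaned to a gene's start once promoters were set aside.

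WT-only peaks lay nearer to the other list's peaks than KO-only peaks did. A WT peak lay within 1 kb of 2.59% of KO-only peaks and within 10 kb of 11.4%, at a median of 63.0 kb. A KO peak lay within 1 kb of 4.15% of WT-only peaks and within 10 kb of 17.4%, at a median of 37.3 kb. A longer list offers more neighbours, and the KO list was the longer.

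KO-only peaks outnumbered WT-only peaks on every autosome, least on chromosome 15. The ratio of KO-only to WT-only peaks was 1.20 there (1.03 to 1.39, 389 and 325 peaks) and 1.41 to 1.92 on the other autosomes, and 1.67 (1.61 to 1.73) over the genome without it. Chromosome 15 held 4.85% of KO-only and 6.64% of WT-only peaks, a difference of -1.79 points (-2.65 to -0.96). The median local background there, over each list's lowest, was 1.34 in WT and 1.43 in KO. Chromosome X was nearly bare, with 52 KO and 32 WT peaks (0.304 and 0.187 per Mb, against 2.86 to 6.30 KO peaks per Mb on autosomes). It held 0.541% of KO and 0.494% of WT peaks, against 1.53% in shControl, 1.21% in shDdx5 and 2.57% without antibody. The sex of the embryos was not given, and its part in these counts was not tested.

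Some bins of 1 Mb held mostly one class. The bins named here were chosen after their counts were seen. The bin chr19:5000001-6000000 held 25 KO-only peaks and 8 WT-only peaks, and chr15:99000001-100000000 held 17 and 1, with KO-only summits in Spats2 and Fmnl3 and shared peaks at Cox14 and Tuba1c. In the other direction chr7:139000001-140000000 held 15 WT-only peaks, 2 KO-only peaks and 0 shared peaks, its WT-only summits lying in Cfap46, Lrrc27 and Stk32c among others, and 4 of the 15 were at promoters. The bin chr15:81000001-82000000 held 16 WT-only and 6 KO-only peaks, 4 of the WT-only summits in the non-coding gene 8430426J06Rik.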

How the data were processed

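CUT&Tag libraries of MEFs, 1 per group, were compared as deposited peak lists. The authors mapped trimmed reads to mm10 with Bowtie2 and called peaks per library with MACS2 without an input track. The submitters' processing notes name MACS2 2.1.2, Trimmomatic and Bowtie2, and the methods name a later MACS2 release. Each deposited list gives a position, a score, a fold enrichment (ratio) at the summit, −log10 p-values and −log10 q-values, and the summit. Every WT and KO peak had a p of 0.001 or lower. Read counts were not used here.

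Pileup and local background were recovered from each fold and p, assuming MACS2's Poisson test. The simulated data used to test this were made with the same formulas, so they cannot show that the deposited values follow them. In the deposited lists a solution was accepted for 99.94% of WT and 99.97% of KO peaks. Peaks of at least 1 bp overlap were shared, each KO peak being paired with the WT peak it overlapped most. Summits were placed with GENCODE M21 and sequence read from the mm10 reference, using Python 3.11.15, numpy 2.4.6, pandas 2.3.3, scipy 1.17.1, pysam 0.24.0 and matplotlib 3.10.9. A promoter was within 1 kb of a TSS. The remaining positions were taken in the order of the exon parts, the 1 kb after a gene's end only outside genes, intron and intergenic. Shares have 95% Wilson intervals, differences Newcombe intervals, medians order-statistic intervals and ratios of counts Poisson intervals on the log scale.

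The members, gene lists and alternatives were chosen with earlier results of these data known. Named were the 10 strongest and 5 widest peaks of each class, the 5 highest and 5 lowest pairs, the 5 genes with most unique summits of each kind, up to 6 genes per state of each list in order of −log10 p, and Mcm8, Mcm9, Hrob (listed as BC030867), Ddx5, Dhx9, Chchd7, Armc10 and Xist. Only some of these are printed, with a few chosen after their values were seen, as stated beside them. Alternatives were a q at or under 0.05, an overlap that covers at least 50% of the KO peak and of the WT peak, a gap of up to 1 kb still counting as shared, the same number of strongest peaks, no-antibody peaks left out, a promoter of 3 kb or of protein-coding genes only, the midpoint in place of the summit and a shorter sequence window. In the q setting, classes and gene states were still set against the whole other list. The HEK293 lists were not used here. Some listed genes are not reported here.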

Additional observations from a re-analysis of the deposited data

How the results depend on the processing

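Of 53 alternatives computed over the 9 values compared, 27 moved the value by less than its counting error, 26 by more, and 0 reversed it beyond counting error. With only peaks at a q of 0.05 or lower counted, each against the whole other list, the KO-only share was 65.2% and the WT-only share 50.7%. The promoter difference between KO-only and WT-only was then 7.66 points and between shared KO and KO-only 32.2, the gene ratio was 2.61 and the GC difference 1.49 points. When an overlap had to cover at least 50% of each peak, the unique shares were 88.6 and 83.1%, the promoter difference 1.93, and the difference in the share with a shRNA-list peak -0.81 points. With gaps of up to 1 kb counting as shared they were 81.3 and 72.4%, and shared KO minus KO-only was 43.0 points. With the same number of strongest peaks, the unique shares were 77.5 and 77.5%, the promoter differences 8.13 and 41.2 points, the width difference 14 bp, the shRNA-list difference 6.74 points, the gene ratio 1.43, the GC difference 0.995 points and the median log2 fold ratio 0.10. With a promoter of 3 kb the promoter differences were 1.17 and 38.4 points and the gene ratio 1.87. Pileup over the lowest background, added after the data were seen, gave 0.22 for the median log2 ratio, the value of a pair with equal pileups in fragments. The overlap rule does not enter the gene ratio. The cause of these moves was not tested. The q setting keeps fewer peaks of both lists, while the strongest-peak setting keeps fewer KO peaks and the whole WT list.

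The KO-only over WT-only excess at promoters was thus not stable in size, while the gap between shared KO and KO-only peaks kept its direction under each alternative. No paired analysis was possible because each genotype had 1 library. Peaks of 6 to 9 fragments are close to the lowest pileups of the lists, so an absent partner peak does not show an absent R-loop.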
